A study of Mus musculus with 9 samples.

Results

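The insulin-like growth factor genes examined here were 10 genes chosen by symbol from the 55487 genes of a mouse count table: the ligands Igf1 and Igf2, the receptors Igf1r and Igf2r, and the binding proteins Igfbp2, Igfbp3, Igfbp4, Igfbp5, Igfbp6 and Igfbp7. Of these 10 genes, 9 passed a filter on low counts and were tested, and Igf2 did not. RNA came from MCEC, an established endothelial line from mouse heart, and each of 3 groups held 3 libraries. WT cells were unmodified, KD cells carried a knockdown of Zbtb46, and OE cells overexpressed Zbtb46, which encodes a zinc finger transcription factor with a BTB domain. The labels state neither how the knockdown and the overexpression were made nor whether replicates came from separate cultures, so the p-values measure only the spread between these libraries. No library of cells given a control vector was analysed here.

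As background, IGF1 and IGF2 are secreted growth factors that act through IGF1R, a receptor tyrosine kinase related to the insulin receptor, and from there through PI3 kinase and AKT. IGF2R has no kinase. It takes IGF2 from the cell surface to lysosomes, where the ligand is degraded, and it also carries newly made lysosomal enzymes tagged with mannose 6-phosphate. The IGF binding proteins are secreted proteins that hold the ligands outside the cell, and proteases release the ligands from them. IGFBP7 binds IGFs only weakly and is known in endothelium as a protein of the vessel wall matrix. In most mouse tissues Igf2r is imprinted and read from the maternal copy, while the antisense RNA Airn is read from the paternal copy.

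Total counts ran from 39491828 to 55745849 per library. Zbtb46 itself had a WT level of 13.7 ± 0.623 CPM (counts scaled to a common library total with TMM factors, mean ± SD, n = 3), against 11.2 ± 0.537 CPM in KD and 191 ± 2.67 CPM in OE, so its mRNA was 17.6% lower in KD than in WT. Of 12 endothelial markers, 5 were tested (Flt1, Kdr, Tek, Eng and Egfl7), and the other 7, with the defining genes Pecam1, Cdh5, Vwf and Erg among them, had at most 10 counts in any library. The 12 markers summed to 146 to 159 CPM in WT, 123 to 131 CPM in KD and 107 to 117 CPM in OE. The 7 fibroblast markers, mostly Col1a1, summed to 5139 to 5713, 4885 to 4948 and 4059 to 4153 CPM in the same order, and the 7 markers of smooth muscle or pericytes to 11.3 to 14.6, 7.05 to 7.29 and 4.08 to 4.88 CPM. The 6 cardiomyocyte markers went the other way, from 0.504 to 1.32 CPM in WT to 7.93 to 8.72 CPM in KD and 6.40 to 7.69 CPM in OE, most of it Actc1, which had 0 counts in WT, while Myh6 had 0 counts in every library and Myh7 and Nppa at most 2. The 6 leukocyte markers summed to 3.82 to 4.05, 4.75 to 5.10 and 2.82 to 4.24 CPM, and the 4 epithelial markers to 2.84 to 3.13, 2.41 to 3.03 and 1.62 to 2.22 CPM. Ribosomal RNA took 7.44% to 17.3% of the counts in WT, 9.55% to 12.0% in KD and 14.4% to 18.2% in OE. What part these levels had in the results on the IGF genes was not tested.

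Igf2r, the lysosomal receptor, fell to a small remainder in KD and rose in OE, and Igfbp6 moved the same way by less. Igfbp3 and Igf1r moved the opposite way, higher in KD and lower in OE. Igfbp2 fell in both, while Igfbp7, Igfbp4 and Igf1 fell in OE and did not pass the test in KD. In these bulk libraries fewer cells with a transcript and less of it per cell cannot be told apart. Genes were called with the quasi-likelihood test of edgeR at an adjusted p under 0.05 (Benjamini-Hochberg, over 16955 genes). In KD against WT this called 5 of the 9 tested members, 2 higher and 3 lower, where 21.3% of all genes tested were called, 11.0% higher and 10.4% lower. In OE against WT it called 8 of 9, 2 higher and 6 lower, where 36.4% of all genes were called, 17.0% higher and 19.5% lower. In OE against KD it called 6 of 9, 2 higher and 4 lower, where 41.5% of all genes were called, 19.4% higher and 22.1% lower. A difference among any of the 3 groups was called for 8 of 9 members and for 47.7% of all genes. The libraries of the groups compared did not overlap for 6 members between KD and WT (34.7% of all genes), for 9 between OE and WT (45.1%) and for 8 between OE and KD (55.4%). Igfbp5 is among the 6 and the 9, and it passed the filter mainly through WT, where it was highest. Without it, 5 and 8 members did not overlap WT. The comparisons of KD and of OE with WT share the WT libraries. The median log2 fold change over the 9 members was -0.25 in KD and -0.56 in OE, beside -0.0022 and 0.0020 over all genes tested, and -0.14 and -0.56 without Igfbp5. Against a minimum fold change of 1.5, 3 members (Igf2r, Igfbp2 and Igfbp6) passed in KD and 5 (those 3 with Igfbp3 and Igfbp7) in OE.

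**Figure D1:**
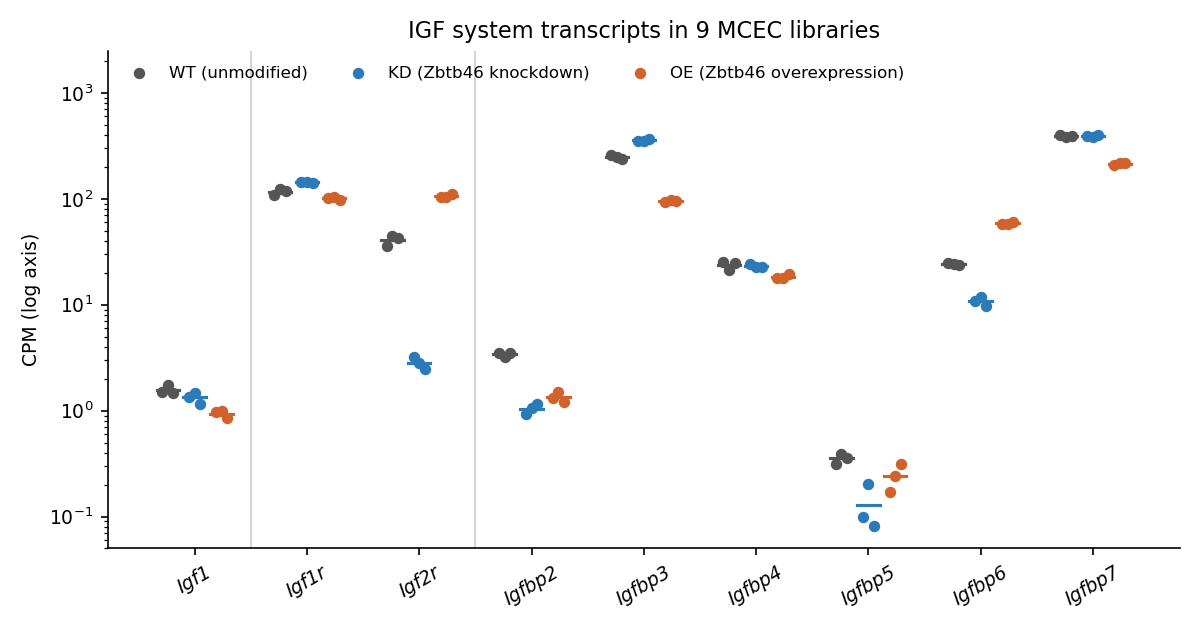
Level of each of the 9 tested members in every library, as CPM on a log axis, with 1 point per library and a bar at the mean of a group's 3 libraries. Igf2r lies at 2.48 to 3.24 CPM in KD and at 103 to 111 CPM in OE, on either side of WT at 36.1 to 44.7 CPM.

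**Figure D2:**
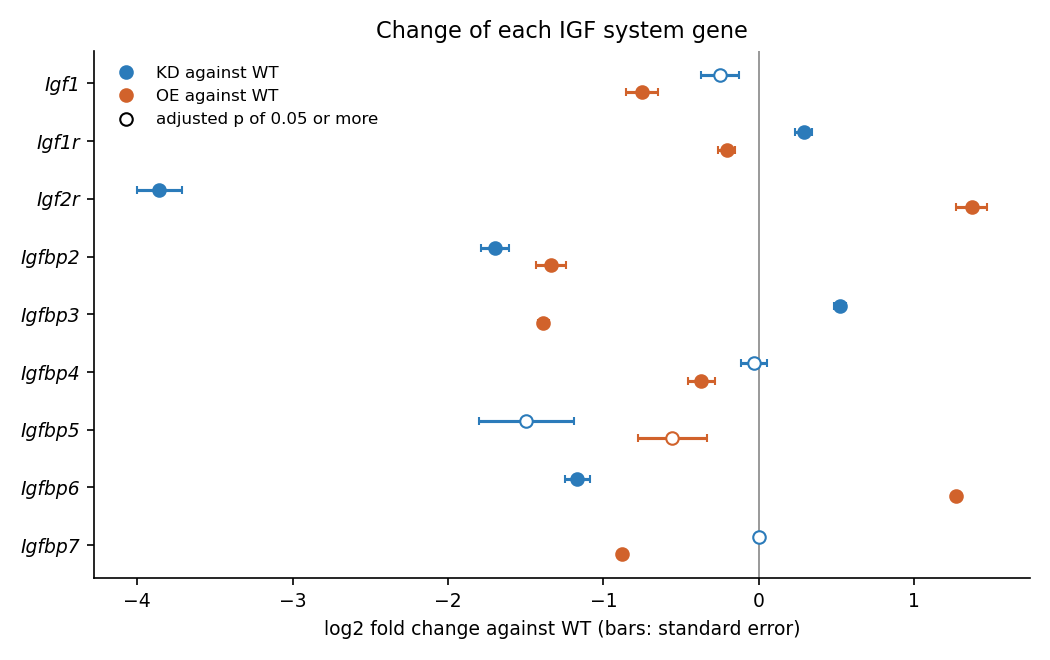
Log2 fold change of each tested member in KD against WT and in OE against WT, with bars of 1 standard error. Igf2r and Igfbp6 lie below 0 in KD and above 0 in OE, and Igfbp3 and Igf1r lie the other way round.

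The 250 bases before the RefSeq start are shown for 3 members with opposed patterns: Igf2r and Igfbp6, which fell in KD and rose in OE, and Igfbp3, which did the reverse. Each comes from RefSeq on GRCm38.p6 and is printed 5′ to 3′ on the gene's strand, and all 10 members matched an entry. Capitals mark matches on either strand to the GC box GGGCGG, the E-box CACGTG and the TATA box TATAAA, which did not overlap one another here. The windows are chr17:12769707-12769956 on the minus strand for Igf2r, chr15:102143936-102144185 on the plus strand for Igfbp6 and chr11:7213924-7214173 on the minus strand for Igfbp3.
Igf2r: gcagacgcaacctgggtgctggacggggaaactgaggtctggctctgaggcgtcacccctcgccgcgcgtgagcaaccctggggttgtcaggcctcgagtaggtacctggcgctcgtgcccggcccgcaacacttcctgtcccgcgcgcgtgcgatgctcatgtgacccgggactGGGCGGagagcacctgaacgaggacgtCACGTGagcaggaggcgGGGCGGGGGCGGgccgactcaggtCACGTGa
Igfbp6: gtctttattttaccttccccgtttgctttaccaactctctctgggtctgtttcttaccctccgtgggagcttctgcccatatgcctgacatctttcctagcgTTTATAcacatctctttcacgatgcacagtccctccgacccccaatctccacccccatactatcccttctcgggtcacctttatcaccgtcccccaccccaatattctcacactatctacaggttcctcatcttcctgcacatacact
Igfbp3: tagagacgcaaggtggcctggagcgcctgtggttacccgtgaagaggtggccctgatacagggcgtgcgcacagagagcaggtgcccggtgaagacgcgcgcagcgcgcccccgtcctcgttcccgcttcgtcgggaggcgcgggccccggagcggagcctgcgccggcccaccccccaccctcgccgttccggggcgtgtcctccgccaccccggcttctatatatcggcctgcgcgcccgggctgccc
The Igf2r window held 27 CpG dinucleotides, 3 GC boxes and 2 E-boxes. The Igfbp6 window held 7 CpG and 1 TATA match, which reads TTTATA on the printed strand. The Igfbp3 window held 32 CpG and none of the 3 motifs. Of 32817 windows of the same length over all genes, 32.7% held a GC box, 6.02% the E-box and 12.4% the TATA box, and the median window held 6 CpG. These matches describe the letters only. The RefSeq starts of Igf2r and Igfbp6 differ from those of GENCODE M21, the annotation used for the gene positions given here.

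Ligand mRNA was scarce. Igf1 (chr10:87858265-87937042, plus strand) stood at 1.503, 1.75 and 1.48 CPM in the WT libraries, at 1.35, 1.48 and 1.17 CPM in KD, and at 0.980, 0.989 and 0.845 CPM in OE, from 38 to 104 counts. Every OE library lay below every WT and KD library, whereas KD and WT overlapped. Igf1 thus fell in OE by a log2 fold change of -0.75 (SE 0.10), at an edgeR adjusted p of 0.0142. This call was lost without WT replicate 2 (edgeR adjusted p of 0.0545) and without OE replicate 3 (0.0532). In KD the log2 fold change of Igf1 was -0.25 (SE 0.12) with an edgeR adjusted p of 0.498, and between OE and KD it was -0.50 with 0.0956. Igf2 (chr7:142650766-142666816, minus strand) had 0 counts in 8 libraries and 1 count in OE replicate 2. At this depth 3 counts correspond to 0.0504 to 0.0791 CPM, the limit that a count of 0 allows for counting error alone. Igf2os, which runs antisense to Igf2, had at most 4 counts, and Igf1os, antisense to Igf1, had 0.

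Among the 9 tested members Igf2r had the largest change in KD and between OE and KD, and the largest rise in OE. It occupies chr17:12682406-12769664 on the minus strand and stood at 36.1, 44.7 and 42.5 CPM in the WT libraries. The KD libraries held 3.24, 2.79 and 2.48 CPM, from 111 to 163 counts, and the OE libraries 105, 103 and 111 CPM, from 4906 to 5120 counts. The 3 groups lay far apart, with each KD library well below the lowest WT library and each OE library well above the highest. The mean was 93.1% lower in KD, which is -3.86 (SE 0.14) on the log2 scale, at an edgeR adjusted p of 2.79e-15, while Zbtb46 itself changed by -0.28 there. In OE the mean was 2.59-fold higher, or 1.37 (SE 0.10) on the log2 scale, at an edgeR adjusted p of 3.24e-11. Between OE and KD it was 37.6-fold higher (5.23, SE 0.12, edgeR adjusted p of 8.97e-18). Ordered by fold change among the 16955 genes, Igf2r was number 56 from the lowest in KD and number 251 from the highest in OE.

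The other receptor, Igf1r (chr7:67952827-68233668, plus strand), is the kinase through which both ligands signal. It stood at 109.6, 124 and 118 CPM in WT, 144, 145 and 139.6 CPM in KD, and 102, 104 and 98.4 CPM in OE. The groups did not overlap, and the steps between them were small. On the log2 scale the change was 0.29 (SE 0.05) in KD with an edgeR adjusted p of 0.000131, -0.21 (SE 0.06) in OE with 0.0015, and -0.50 (SE 0.03) between OE and KD with 2.45e-08. None of these passed against a minimum fold change of 1.5. Because the receptors moved in opposite directions, the ratio of Igf2r to Igf1r, each in CPM per kilobase of exon, was 0.632 ± 0.0329 in WT, 0.0357 ± 0.00431 in KD and 1.89 ± 0.132 in the OE libraries (SD, n = 3). Igf1r thus had the higher level per length in WT and KD, and Igf2r in OE.

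Igf2r overlaps Airn, its antisense imprinting partner, by 28354 bases on the opposite strand. Whether counting used strand is not given in the sources used here, so reads of the pair cannot be told apart where they overlap. Airn stood at 3.17 ± 0.422 CPM in WT, 3.35 ± 0.651 CPM in KD and 3.13 ± 1.25 CPM in OE (SD, n = 3), with edgeR adjusted p-values of 0.882 in KD and 0.964 in OE. Airn included, 15 other genes that reach within 500 kb of Igf2r were tested. None passed in KD, beside 21.3% of all genes tested. Their log2 fold changes there ran from -0.76 (Gm15946) to 0.71 (Gm7162), genes with WT means of only 0.536 and 0.508 CPM. In OE 3 of the 15 were higher and 0 lower, where 36.4% of all genes tested were called, 17.0% higher and 19.5% lower. The 3 were Acat2 (0.58), a thiolase of lipid metabolism, Sod2 (0.17), the mitochondrial superoxide dismutase, and Tcp1 (0.16), a chaperonin subunit. With library totals alone the calls of Sod2 and Tcp1 were lost, and that of Sod2 also without OE replicate 1.

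**Figure D3:**
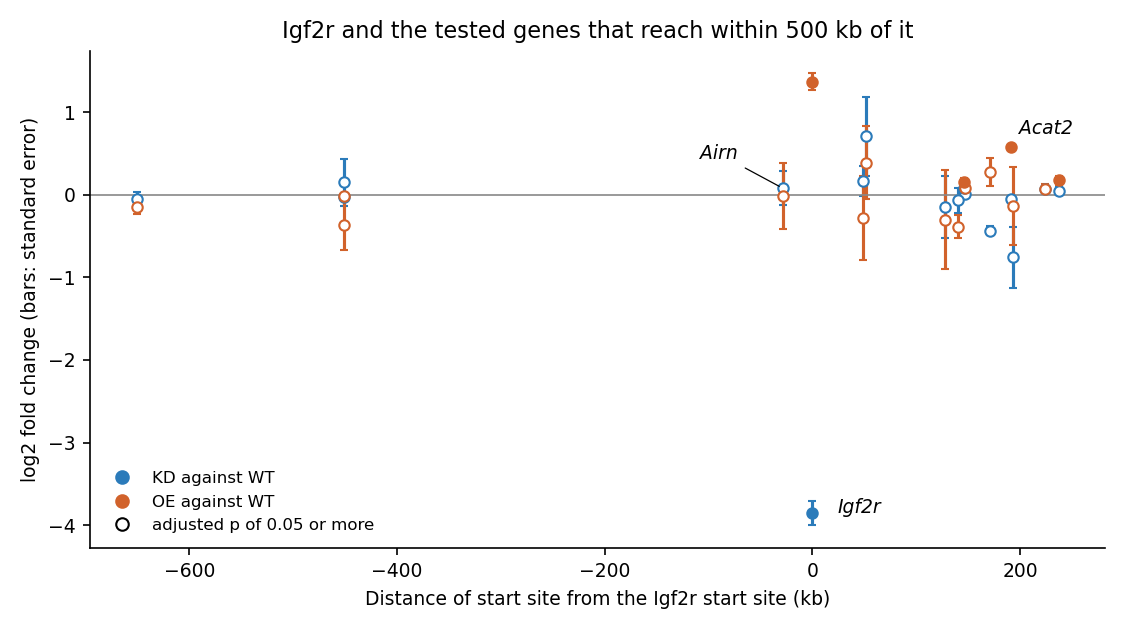
Log2 fold change of Igf2r and of 15 tested neighbours, with bars of 1 standard error, against the distance in kb of their start sites from that of Igf2r, for KD and OE against WT (open points did not pass the test). In KD Igf2r lies at -3.86 and its neighbours between -0.76 and 0.71.

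Igfbp6, a binding protein that prefers IGF2, followed the same order of groups as Igf2r. It lies at chr15:102144362-102149511 on the plus strand. Its levels were 24.8, 24.5 and 23.8 CPM in WT, 10.9, 11.9 and 9.83 CPM in KD, and 57.97, 57.95 and 60.5 CPM in OE. The libraries of a group were close together and the groups did not overlap. Igfbp6 had log2 fold changes of -1.17 (SE 0.08) in KD, 1.27 (SE 0.03) in OE and 2.44 (SE 0.08) between OE and KD, with edgeR adjusted p-values of 1.47e-10, 2.11e-12 and 1.3e-16. Within 500 kb, 24 genes were tested near Igfbp6. Of these 4 were lower and 0 higher in KD, and 5 were higher and 6 lower in OE, with medians of -0.02 and 0.0047. These are 16.7% and 45.8% of the neighbours, beside 21.3% and 36.4% of all genes.

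Igfbp3, the main IGF carrier of blood plasma, had the reverse order of groups. It lies at chr11:7206086-7213923 on the minus strand. The WT libraries held 258, 250.2 and 238 CPM, the KD libraries 353, 353 and 367 CPM, and the OE libraries 93.6, 96.5 and 94.9 CPM. No library of one group reached another group, and the spread within OE was the smallest. In KD the change was 0.52 (SE 0.04) on the log2 scale, with an edgeR adjusted p of 9.3e-09, a call that was lost against a minimum fold of 1.5. In OE it was -1.39 (SE 0.04) with an edgeR adjusted p of 5.89e-16, and between OE and KD -1.91 (SE 0.02) with 6.01e-18. Over the 20 Mb genome window that holds Igfbp3, the median of all tested genes in OE was -0.52. With that median removed, Igfbp3 stood at -0.87 in OE, and at -1.46 between OE and KD once the median of that comparison was removed. Only 2 other genes were tested within 500 kb. One of them, Adcy1, an adenylyl cyclase, was also higher in KD (0.46, edgeR adjusted p of 7.24e-08) and lower in OE (-1.45, edgeR adjusted p of 5.27e-16). The ratio of Igfbp3 to Igfbp6 per length was 3.63 ± 0.0679 in WT, 11.8 ± 1.36 in KD and 0.574 ± 0.0173 in the OE libraries (SD, n = 3).

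Igfbp7 was the most abundant member per length in all 3 groups. It lies at chr5:77349240-77408041 on the minus strand and overlaps Polr2b on the other strand by 85 bases. Its levels were 402, 387 and 392 CPM in WT, 394, 386 and 400.2 CPM in KD, and 207, 217 and 219 CPM in OE. WT and KD overlapped, and every OE library lay below both. Igfbp7 fell in OE by a log2 fold change of -0.88 (SE 0.03) in OE with an edgeR adjusted p of 3.11e-13, and the change was -0.88 (SE 0.03) between OE and KD with 1.82e-13. In KD it was 0.0004 (SE 0.02) with an edgeR adjusted p of 0.996, and its sign depended on the scaling.

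Igfbp2 and Igfbp5 are neighbours on chromosome 1, and both had their highest mean in WT. Igfbp2 (chr1:72824503-72852474, plus strand), a binding protein with an integrin-binding motif, held 3.48, 3.23 and 3.49 CPM in WT, 0.934, 1.055 and 1.15 CPM in KD, and 1.32, 1.49 and 1.2002 CPM in OE. Both modified groups lay well below WT and did not overlap each other. The log2 fold change was -1.70 (SE 0.09) in KD and -1.34 (SE 0.10) in OE, with edgeR adjusted p-values of 2.4e-06 and 1.01e-05, and 0.36 (SE 0.12) between OE and KD with 0.184. Igfbp5 (chr1:72857932-72874884, minus strand), which binds extracellular matrix, was near the detection limit, with 4 to 23 counts per library. It stood at 0.316 to 0.387 CPM in WT, 0.0819 to 0.201 CPM in KD and 0.171 to 0.311 CPM in OE. It reached the filter's cutoff of 0.210 CPM in 3 WT, 0 KD and 2 OE libraries, so the filter kept it through the group where it was highest. Its log2 fold change was -1.497 (SE 0.31) in KD with an edgeR adjusted p of 0.059 (limma-voom: 0.0381) and -0.56 (SE 0.22) in OE with 0.433.

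Igfbp4, a binding protein cleaved by the protease PAPP-A, lies at chr11:99041244-99054392 on the plus strand. It stood at 25.1, 21.4 and 25.01 CPM in WT, 24.4, 22.5 and 22.9 CPM in KD, and 17.8, 17.97 and 19.4 CPM in OE. WT and KD overlapped, and OE lay below both. Its change on the log2 scale was -0.37 (SE 0.09) in OE with an edgeR adjusted p of 0.000535, -0.34 (SE 0.05) between OE and KD with 0.000943, and -0.03 (SE 0.08) in KD with 0.84. The calls in OE were lost against a minimum fold of 1.5.

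Levels can be set beside each other only per length, here as CPM per kilobase of merged exons. In WT the order was Igfbp7 (326), Igfbp3 (79.4), Igfbp6 (21.9), Igf1r (6.98), Igfbp4 (5.40), Igf2r (4.42), Igfbp2 (1.84), Igf1 (0.159) and Igfbp5 (0.0589), with Igf2 at 0. No neighbours in this order overlapped over their 3 libraries. The closest were Igfbp4, with a lowest value of 4.84, and Igf2r, with a highest value of 4.81. In KD Igf2r (0.305) stood below Igfbp2 (0.566). In OE Igfbp6 (52.9) stood above Igfbp3 (30.3), and Igf2r (11.4) above Igf1r (6.04).

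The 6 binding proteins together gave a summed level in WT of 434 ± 8.83 CPM per kilobase (SD, n = 3). The sum was 455 ± 7.08 for KD and 265 ± 6.64 for OE. The OE sum was 38.9% lower than the WT sum, and the KD sum was 1.05 times the WT sum. In each comparison the 3 libraries of one group lay on one side of the other, which gave an exact two-sided permutation p of 0.1, the smallest that 3 against 3 allows. Igfbp7 made up 75.0% of the sum in WT, 71.5% in KD and 66.8% in OE. Igfbp3 made up 18.3%, 25.1% and 11.4%, and Igfbp6 5.05%, 2.15% and 19.9%. The pool of binding protein mRNA was thus smaller in OE and held more Igfbp6 and less Igfbp3. Its largest fall between WT and OE was that of Igfbp7, from 326 to 177 CPM per kilobase.

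**Figure D4:**
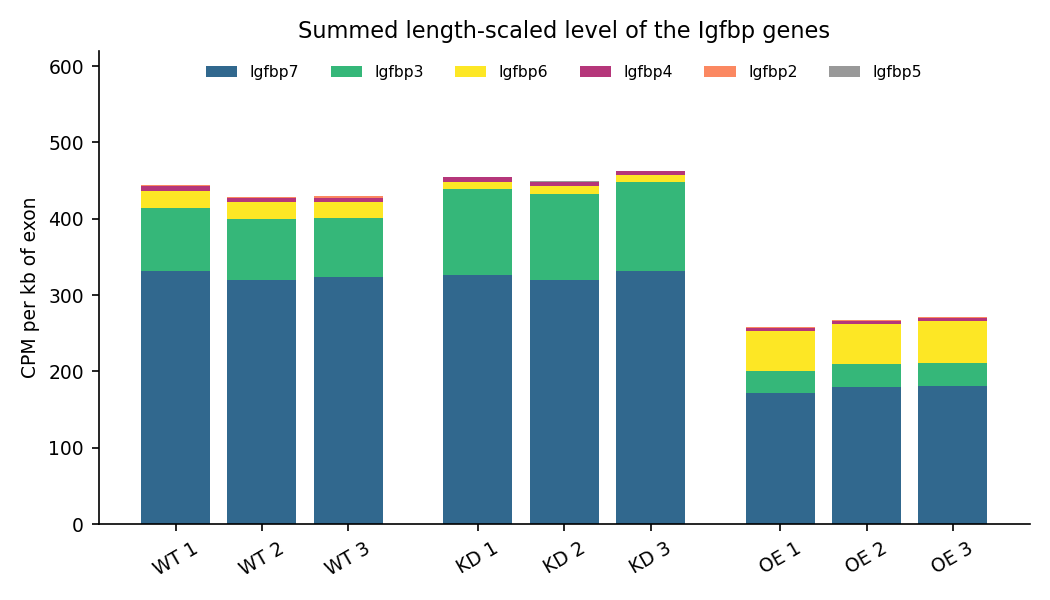
Summed level of the 6 binding proteins in each library, in CPM per kilobase of exon on an axis from 0, with each bar divided by gene. The OE bars are the lowest, and Igfbp6 takes 19.9% of the mean OE bar against 5.05% in WT.

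The genes whose log2 CPM followed a member most closely over the 9 libraries were sought among 9942 genes whose mean reached 5 CPM in 1 or more groups. Pearson correlations are given as a description, since all libraries share the same 3 groups. For Igf2r they were Tmem185b (0.999), Adgrg1 (0.998) and Pard6g (0.997). Pard6g, a polarity adaptor, went from 2.89 CPM in WT to 0.0851 CPM in KD and 8.65 CPM in OE. Adgrg1, an adhesion receptor, stood at 26.2, 13.9 and 33.1 CPM. For Igfbp6 they were Smarca2 (0.998), a chromatin remodelling ATPase, Parvb (0.995), a focal adhesion protein, and H1f10 (0.994), a linker histone. For Igfbp3 they were Ptpn9, Ctdspl and the caveolar gene Cavin2 (0.998 to 0.999), and for Igfbp7 Cpe, Col8a2 and Ddc, with Cpe at 0.998. For Igf1r they were Dcbld2 (0.991), Gnptab (0.990), which makes the mannose 6-phosphate tag that IGF2R binds, and Epha4 (0.989). The closest gene was Amer1 (0.978) for Igf1, Bmp4 (0.991) for Igfbp2 and Atp6v0e2 (0.976) for Igfbp4.

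The counts in the lists that follow stand beside the shares over all genes, 11.0% higher and 10.4% lower in KD and 17.0% higher and 19.5% lower in OE. Of 15 genes listed as relatives of the binding proteins, 8 were tested, of which 3 were higher and 2 lower in KD, and 0 higher and 4 lower in OE. Their median log2 fold change was -0.22 in KD and -0.42 in OE; the medians over all genes, -0.0022 and 0.0020, are those to set beside each list. Ccn2, a matricellular protein of the CTGF type, was higher in KD (0.21) and lower in OE (-0.87, edgeR adjusted p of 2.43e-09), and Crim1, a transmembrane BMP-binding protein, went the same way (0.31 and -0.44). Htra1, a secreted serine protease, was lower in both (-0.22 and -0.45), as was Ccn1 (-0.22 and -0.39). The KD call was lost for Ccn2 without KD replicate 3, WT replicate 1 or WT replicate 3 and for Ccn1 without WT replicate 3 (highest edgeR adjusted p over the alternatives 0.186 and 0.0683).

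A further list held proteases, among them some that cut binding proteins, and protease inhibitors. In OE 6 of its 10 tested genes were lower and 1 was higher. In KD 4 were higher and 2 lower, and the medians were 0.03 in KD and -0.50 in OE. Pappa2, a protease of IGFBP3 and IGFBP5, went from 12.1 ± 2.39 CPM in WT to 16.3 ± 1.63 CPM in KD and 5.03 ± 0.340 CPM in OE (SD, n = 3), with log2 fold changes of 0.41 and -1.28 and edgeR adjusted p-values of 0.0186 and 2.23e-07. Stc1, an inhibitor of the pappalysins, went the other way, from 0.921 ± 0.116 CPM to 0.336 ± 0.0595 CPM in KD and 1.57 ± 0.107 CPM in OE, with edgeR adjusted p-values of 0.00135 and 0.0238. Stc2, of the same list, was also lower in KD (-1.34, edgeR adjusted p of 0.000359) but did not pass in OE (0.03, edgeR adjusted p of 0.941). Prss23 (0.68 in KD, -0.89 in OE), Timp2 (0.31 and -0.39) and Adam9 (0.23 and -0.26) had the pattern of Pappa2. The KD call of Pappa2 was lost without KD replicate 2 or WT replicate 1, and the OE call of Stc1 without any 1 of OE replicates 1 and 2 and WT replicates 2 and 3 (highest edgeR adjusted p over the alternatives 0.116 and 0.0716). Cpe, which trims peptide hormones, was lower in OE (-1.17, edgeR adjusted p of 8.06e-15).

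On the insulin receptor side, 15 of 19 listed genes were tested, and Ins1 and Ins2, the insulin genes, were not among them. In KD 1 was higher and 2 lower, and in OE 2 were higher and 6 lower, with medians of 0.06 and -0.15. Irs2, a docking protein of both receptors, had the smallest p in KD (0.31, edgeR adjusted p of 6.77e-05). Grb14, which binds and restrains the insulin receptor, was lower in OE (-0.59, edgeR adjusted p of 8.77e-09), as was the docking protein Gab1 (-0.61).

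In the chain from PI3 kinase through AKT to FOXO factors all 25 genes were tested, with 7 higher and 3 lower in KD and 5 higher and 6 lower in OE (medians 0.0069 and -0.04). Among regulatory subunits of PI3 kinase, Pik3r1 was higher in KD (0.32) and lower in OE (-0.56), and Pik3r3 the reverse (-1.02 and 0.50). With the median of its genome window removed, Pik3r1 stood at 0.15 in KD and -0.30 in OE. The OE call of Pik3r3 was lost without any 1 of OE replicates 1 and 2 and WT replicates 1 and 3 (highest edgeR adjusted p over the alternatives 0.123), and its OE value was 0.14 with the window median removed. The other genes called higher in OE were Mtor, Foxo6, Foxo1 and Pdpk1, at 0.40, 0.31, 0.30 and 0.14. With the window median removed these genes stood at 0.10, -0.03, 0.27 and 0.14. The catalytic subunit gene Pik3cb was higher in KD (0.46, edgeR adjusted p of 3.43e-07).

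Of the 14 listed FOXO targets 13 were tested, with 3 higher and 3 lower in KD and 6 higher and 4 lower in OE (medians 0.05 and -0.0049). Ccng2, a cyclin of arrested cells, went from 20.4 ± 1.44 CPM in WT to 12.6 ± 0.835 CPM in KD and 31.6 ± 0.938 CPM in OE (SD, n = 3), with edgeR adjusted p-values of 9.56e-07 and 5.05e-07. Sesn3, a stress-induced inhibitor of mTORC1, was lower in OE (-0.69). The list shares Irs2 and Insr with the insulin receptor side.

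Among IGF mRNA-binding proteins, which attach to Igf2 and other transcripts, all 3 genes were tested, and Igf2bp2 fell in KD (-0.33) and rose in OE (0.40). Igf2bp1 was higher in both (0.26 and 0.23, the latter lost with library totals alone), and Igf2bp3 passed in neither. Of 10 imprinting and antisense partners 5 were tested, with 3 higher and 0 lower in KD and 3 higher and 0 lower in OE (medians 0.29 and 0.27). Plagl1 and Ctcf passed in both, Zfp57 (0.40) only in KD and Hmga2 (0.96) only in OE. The call of Zfp57 was lost with library totals alone and without any 1 of KD replicates 1 and 2 and WT replicates 1, 2 and 3. Plagl1, an imprinted zinc finger factor, went from 0.632 ± 0.143 CPM in WT to 1.34 ± 0.301 CPM in KD and 6.93 ± 0.579 CPM in OE (SD, n = 3), with log2 fold changes of 1.07 and 3.45 and edgeR adjusted p-values of 0.00186 and 3.24e-11. Ctcf, the insulator protein that binds the imprinting control region of Igf2 and H19, was higher in both by 0.29 and 0.27.

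The list of Igf2r trafficking and ligand receptors had 14 of 14 genes tested, with 5 higher and 0 lower in KD and 1 higher and 4 lower in OE (medians 0.0033 and -0.14). M6pr, the other mannose 6-phosphate receptor, stood at 111 ± 2.92, 111 ± 1.16 and 113 ± 3.36 CPM (SD, n = 3) in WT, KD and OE, with edgeR adjusted p-values of 0.95 and 0.765. Cd93, an endothelial surface protein reported to bind IGFBP7, went from 4.97 ± 0.952 CPM in WT to 9.15 ± 1.12 CPM in KD and 0.974 ± 0.346 CPM in OE, with log2 fold changes of 0.88 and -2.34 and edgeR adjusted p-values of 0.00119 and 6.63e-08. Cav1, the caveolar coat protein, was higher in KD (0.48) and lower in OE (-0.50), as was Gnptab (0.31 and -0.23).

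**Figure D5:**
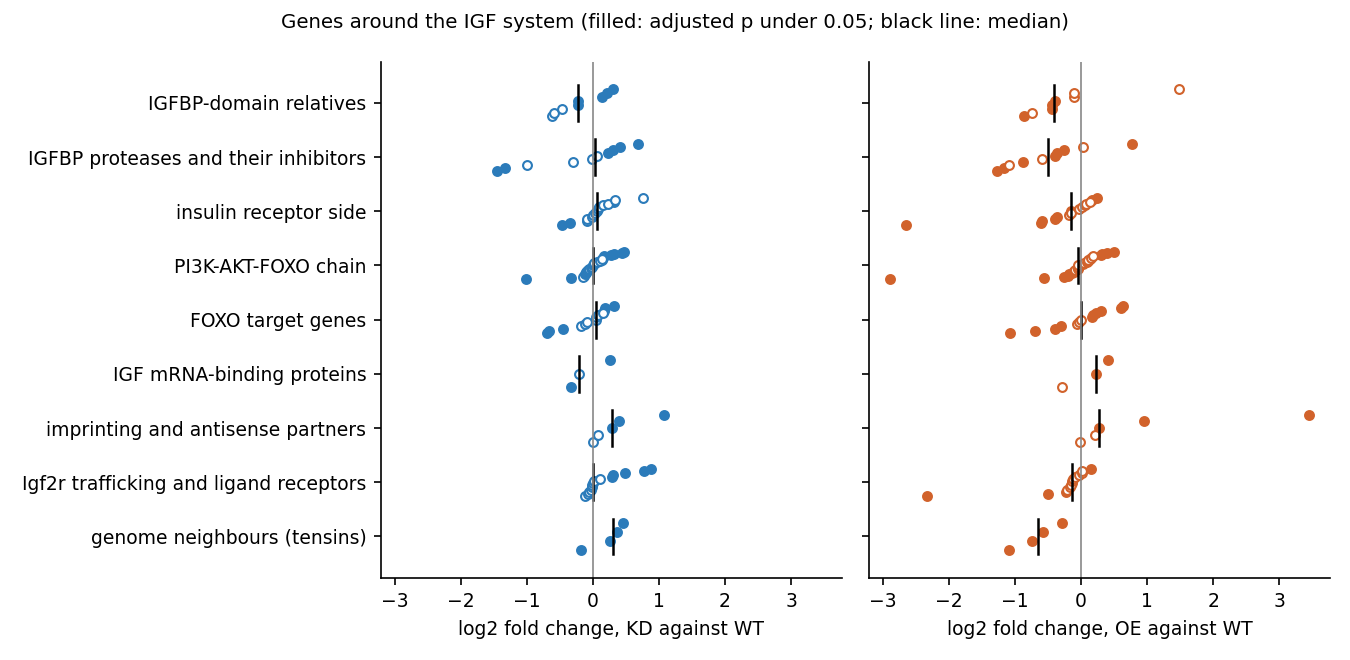
Log2 fold change of every tested gene of each list in KD (left) and OE (right) against WT, 1 point per gene, filled where the adjusted p was under 0.05, with a black line at the list's median. The list of proteases and their inhibitors has 4 higher and 2 lower genes in KD and 1 higher and 6 lower in OE.

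Each tensin gene, which encodes a focal adhesion adaptor, shares a chromosome region with a binding protein gene, and the 4 were examined as neighbours. Tns4 lies 11.3 kb from Igfbp4, Tns2 28.0 kb from Igfbp6, Tns1 1035 kb from Igfbp5 and Tns3 1218 kb from Igfbp3. All 4 tensins passed in every comparison. In KD Tns1 (0.45), Tns3 (0.26) and Tns4 (0.36) were higher and Tns2 (-0.17) was lower. In OE all 4 were lower, with log2 fold changes of -0.29 for Tns1, -0.57 for Tns2, -1.09 for Tns3 and -0.74 for Tns4. Tns3 lies in the window with Igfbp3, and its OE value with the window median removed was -0.57. Tns2 fell in OE beside Igfbp6, which rose there, while Tns4 and Igfbp4 both fell.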

How the data were processed

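RNA from 9 MCEC libraries was selected for poly-A tails and read as pairs on a NovaSeq sequencer, per the labels' protocols. The authors deposited raw counts, whole numbers, for each Ensembl gene in each library. The build is GRCm38 (mm10) per the submitters' processing notes; the aligner, the counter and the use of strand are not given in the sources used here. Rows repeated for 168 genes were counted once. Every column matched 1 library and 0 were left over.

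Genes were kept with filterByExpr, scaled with TMM and fitted in edgeR 4.0.16 (R 4.3.3) by robust quasi-likelihood, all 9 libraries in 1 model with no term but the group. Benjamini-Hochberg adjustment ran over 16955 genes. CPM uses the TMM factors. Standard errors were computed from each group's SD of log2 CPM, with a prior count of 2. The procedure was tested on simulated counts. Totals of 39491828 to 55745849 counts set the precision, and limits from counts cover counting error only. Alternatives used limma 3.58.1 and DESeq2 1.42.0, other scalings and filters, left-out libraries and the replicate number as a block. Tables and figures used matplotlib 3.10.9, numpy 2.4.6 and pandas 2.3.3 under Python 3.11.15.

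The members and gene lists were chosen with earlier results of these data known. All members are named. From each list the named genes are the one with the smallest p in each comparison and any that pass in all 3; other genes of a list and genes near a member were named after their values were seen. One gene named by this rule is left out of the text. For likeness, the 3 genes with the highest Pearson correlation were taken per member. Genome windows are 20 Mb long with at least 10 tested genes.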

Additional observations from a re-analysis of the deposited data

How the results depend on the processing

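The alternatives were DESeq2 size factors, upper-quartile factors, library totals alone, 2 other filters, DESeq2 and limma-voom tests, the replicate block, a fit limited to the 2 groups compared, a minimum fold of 1.5 and each library left out. They were run on the members' changes and calls, and on the binding protein sums and shares, which also had a second gene length; of the members' 27 gene comparisons 17 kept direction and side of the threshold throughout. With a minimum fold of 1.5, 3 members passed in KD and 5 in OE. Leaving out 1 library gave 5 members in KD, 7 to 8 in OE, 6 in OE against KD and 7 to 8 for any difference. Igfbp4 in KD changed sign without WT replicate 1 (0.0083) and without WT replicate 3 (0.011), and with 1 library left out ran from -0.10 to 0.011. Igfbp7 in KD changed sign with upper-quartile factors (-0.029), library totals (-0.034), at least 10 counts in every library (-0.0054) and only the groups compared (-0.0027), and without WT replicate 2 (-0.011), WT replicate 3 (-0.00072) and KD replicate 3 (-0.012), and with 1 library left out ran from -0.012 to 0.015. Neither gene passed under any of these, and the cause was not tested. The ratio of the binding protein sums, OE to WT, was 0.586 with library totals. With the longest transcript as length, Igfbp3 took 22.3%, 29.99% and 14.2% of the sum in WT, KD and OE, Igfbp7 71.1%, 66.6% and 64.5%, and Igfbp6 4.75% in WT and 19.1% in OE; here only the lengths differ. Deviations of same-numbered libraries from their group means had correlations between -0.20 and 0.097. These values cannot show whether libraries with the same number were prepared together, which the labels do not state. The fit with the replicate block gave 5 members in KD, 8 in OE and 6 in OE against KD, with no member's call changed. Read also for the list genes, a step added after seeing the data, the same fits kept 28 of 43 calls in KD and 36 of 53 in OE throughout, the minimum fold aside, and reversed 0. List medians, the likeness search and calls between OE and KD for list genes were not recomputed. Depth limits Igf1, Igfbp5 and Igf2, with at most 104, 23 and 1 counts in a library.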
